A study of Mus musculus with 36 samples.

Results

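Circadian output factors of the PAR-bZIP, ROR and DEC families, and related ones, were followed in mouse liver around the day. The mice were with or without a working thyroid hormone receptor beta (THRB). The 9 genes *Dbp*, *Tef*, *Hlf*, *Nfil3*, *Rora*, *Bhlhe40*, *Bhlhe41*, *Ciart* and *Nr1d1* were taken by their symbol from the deposited table of 54532 genes. All 9 passed the filter of at least 100 counts over all livers, which left 17994 genes for testing. The study sequenced 36 livers of male mice aged 2 to 3 months, 18 controls and 18 knockouts, with 3 mice of each genotype at each of 6 zeitgeber times (ZT, counted in hours from lights on, with 12 h of light and 12 h of dark), from ZT2 every 4 h to ZT22. The labels give the 3 mice of a group the letters a, b and c, and values per liver are given in that order. The controls, labelled WT, were heterozygous by the study's methods (THRB+/-, here THRBWT). They therefore carried 1 altered *Thrb* allele. The knockouts (THRB-/-, here THRBKO) carried that allele, Thrbtm1Df, on both chromosomes in every cell of the body, so a change in liver need not arise in liver cells. All mice were bred on the C57Bl/6NCrl background and had chow and water at will. The question here was how the output factors vary over the day, and whether their level or timing differed between genotypes.

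Library totals ranged from 29063273 to 39913574 counts in THRBWT and from 31008555 to 42530551 in THRBKO livers. *Thrb* itself was counted at 24.3 to 38.5 CPM (counts scaled to the same library total, with TMM factors) in THRBWT and at 26.2 to 37.7 CPM in THRBKO livers. Gene counts do not tell the altered from the intact transcript, so its level did not check the labels. *Dio1*, a deiodinase gene and a classical target of the receptor, had 94.4 ± 31.97 CPM (SD, n = 18) in THRBWT and 48.3 ± 12.3 CPM (SD, n = 18) in THRBKO livers. The 5 hepatocyte markers summed to between 65060 and 98940 CPM in every liver, and none of them, nor of the markers tested for 6 other cell types, differed between genotypes. The 3 markers of pancreas acinar cells summed to at most 0.0891 CPM. No pair of livers of 1 group agreed within sampling noise.

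The circadian clock of each cell is a loop in which CLOCK and BMAL1 (gene *Arntl*) bind E-boxes and switch on their own repressors, the PER and CRY proteins. The genes described here carry the rhythm of that loop to the metabolic genes of liver. DBP, TEF and HLF activate genes through D-boxes, to which NFIL3 (E4BP4) binds as a repressor. RORA and NR1D1 (REV-ERB alpha) compete for another element, the RORE, the first as an activator and the second as a repressor that recruits corepressors in response to heme. BHLHE40 (DEC1) and BHLHE41 (DEC2) occupy E-boxes and repress, and CIART (CHRONO) represses CLOCK and BMAL1 directly.

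The promoters show which of these elements lie at the start sites. RefSeq windows of 300 bases (250 before to 50 after the start, GRCm38.p6) were at hand for 8 of the 9 genes, with 2 alternative starts for *Tef*. They were searched on both strands for the E-box CACGTG, the E'-box CACGTT, the D-boxes TTATGTAA and TTACGTAA, and the RORE cores TAGGTCA and TGGGTCA. None of these letters overlapped in the windows. An E-box was found in 7.15% of all 32851 promoters in the table, an E'-box in 4.68%, a D-box in 1.06% and a RORE core in 6.45%. *Ciart* held 3 E-boxes within 116 bases before its start, while *Bhlhe41* and both starts of *Tef* held 1 each. *Nr1d1* held 1 E'-box and *Nfil3* 1 RORE core. The windows of *Dbp*, *Hlf* and *Rora* held none of these letters, which says nothing of elements elsewhere in those genes. The 5 promoters below are those of the genes with a match, with the downstream start for *Tef*. Windows without a match are not shown, and a link of these elements to the peak times reported further on was not tested. The matched elements stand in capitals, and each sequence is written 5′ to 3′ along its gene.
*Nr1d1* promoter (chr11:98775328-98775627, minus strand), E'-box read from the opposite strand: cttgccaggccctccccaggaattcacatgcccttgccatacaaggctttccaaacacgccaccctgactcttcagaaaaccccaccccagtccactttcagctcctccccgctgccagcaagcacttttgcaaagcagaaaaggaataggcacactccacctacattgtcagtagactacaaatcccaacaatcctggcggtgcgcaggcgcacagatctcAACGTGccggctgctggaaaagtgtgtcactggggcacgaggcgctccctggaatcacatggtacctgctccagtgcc
*Bhlhe41* promoter (chr6:145865371-145865670, minus strand), E-box: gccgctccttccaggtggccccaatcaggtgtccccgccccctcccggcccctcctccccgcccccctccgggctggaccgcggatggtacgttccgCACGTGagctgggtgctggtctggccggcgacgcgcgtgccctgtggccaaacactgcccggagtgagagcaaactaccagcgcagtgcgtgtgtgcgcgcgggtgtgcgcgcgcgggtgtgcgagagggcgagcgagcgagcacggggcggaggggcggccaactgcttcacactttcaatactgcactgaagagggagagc
*Tef* promoter of the downstream start (chr15:81811164-81811463, plus strand), E-box: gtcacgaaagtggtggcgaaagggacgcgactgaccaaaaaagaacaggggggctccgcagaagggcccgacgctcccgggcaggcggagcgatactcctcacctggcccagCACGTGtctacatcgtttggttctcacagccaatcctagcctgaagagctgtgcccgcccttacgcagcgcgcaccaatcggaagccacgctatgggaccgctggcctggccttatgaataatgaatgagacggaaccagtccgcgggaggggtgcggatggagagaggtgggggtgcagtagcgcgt
*Ciart* promoter (chr3:95882179-95882478, minus strand), E-boxes: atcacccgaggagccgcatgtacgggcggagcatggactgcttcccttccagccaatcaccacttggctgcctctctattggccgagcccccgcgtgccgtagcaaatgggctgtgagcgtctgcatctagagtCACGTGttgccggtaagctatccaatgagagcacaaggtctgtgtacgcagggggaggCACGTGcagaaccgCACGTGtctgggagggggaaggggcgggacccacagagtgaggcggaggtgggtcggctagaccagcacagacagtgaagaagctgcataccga
*Nfil3* promoter (chr13:52980990-52981289, minus strand), RORE core read from the opposite strand: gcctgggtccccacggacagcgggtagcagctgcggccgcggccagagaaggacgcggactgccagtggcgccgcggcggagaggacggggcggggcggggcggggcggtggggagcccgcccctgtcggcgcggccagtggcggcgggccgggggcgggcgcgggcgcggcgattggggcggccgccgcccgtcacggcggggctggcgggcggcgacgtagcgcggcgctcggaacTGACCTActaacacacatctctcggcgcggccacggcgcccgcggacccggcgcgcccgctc

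*Dbp* had the largest swing of the 3 PAR-bZIP activators. Its gene lies on chromosome 7 of GRCm38 from 45705088 to 45710203. At ZT2 the 3 THRBWT livers had 4.72, 0.733 and 0.998 CPM and the 3 THRBKO livers 2.20, 0.643 and 0.894 CPM. At ZT6 the values were 139, 119 and 170.2 CPM in THRBWT and 194, 92.8 and 94.8 CPM in THRBKO livers. Every liver at ZT6 thus stood above every liver at ZT2, in both genotypes. With the genotypes averaged, the log2 fold change over these 4 h was 6.38 (SE 0.372, adjusted p = 1.82e-12) by the quasi-likelihood test of edgeR, an 83.5-fold rise (95% interval 49.2 to 142). Without the first THRBWT liver at ZT2 the log2 fold change was 7.03, or 130.5-fold. In bulk liver a higher value can mean more RNA per cell or more cells of a type, which cannot be told apart. From ZT6 to ZT10 the change of *Dbp* did not pass the test (log2 fold change 0.44, SE 0.279, adjusted p = 0.429), and at ZT10 it had 123, 194 and 171 CPM in THRBWT and 220.3, 176 and 219.7 CPM in THRBKO livers. It then fell through the night. The changes were -2.38 (SE 0.294, adjusted p = 1.42e-06) on the log2 scale from ZT10 to ZT14, -2.21 (SE 0.303, adjusted p = 5.37e-05) from ZT14 to ZT18 and -1.44 (SE 0.327, adjusted p = 0.0215) from ZT18 to ZT22. At ZT22 between 1.60 and 3.92 CPM were left over both genotypes. The exons of *Dbp* overlap *Sphk2* on the opposite strand by 539 bases, 18% of its exon bases, and in these non-directional libraries reads there cannot be assigned to either gene by strand. *Sphk2* had 20.6 to 77.1 CPM over all livers, several times the lowest values of *Dbp*, and its part in those low values was not tested.

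*Tef* (chromosome 15, 81802421 to 81826863) rose with *Dbp* from ZT2 to ZT6, by less, and rose again to ZT10. Its 3 livers had 49.6, 35.3 and 34 CPM in THRBWT and 40.5, 30.8 and 30.9 CPM in THRBKO at ZT2. At ZT6 they had 153, 167 and 244 CPM and 213, 123 and 161 CPM, and at ZT10 279, 324 and 326 CPM and 344, 323 and 311 CPM. All 6 livers at ZT10 lay above all 6 at ZT6. The 2 rises, of 2.26 (SE 0.143, adjusted p = 7.15e-12) and 0.85 (SE 0.137, adjusted p = 8.47e-05) on the log2 scale, both passed edgeR's test. From there *Tef* fell at each of the 4 remaining steps, by log2 values between -0.68 and -0.92. *Tef* and *Ciart* were the 2 genes that changed at all 6 steps.

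*Hlf* (chromosome 11, 90336536 to 90390895) was the flattest of the 3. It stood at 34.2, 33.4 and 31.3 CPM in THRBWT and 37.9, 39 and 33.8 CPM in THRBKO livers at ZT2. At ZT14 the values were 52.5, 72 and 68.7 CPM and 59, 80.3 and 51.5 CPM, above every liver at ZT2. The rise from ZT2 to ZT6 was 0.59 (SE 0.114, adjusted p = 0.000755) and the fall from ZT14 to ZT18 -0.40 (SE 0.113, adjusted p = 0.0326) on the log2 scale by edgeR. No other step of *Hlf* passed the test.

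*Nfil3*, the repressor at D-boxes (chromosome 13, 52967209 to 52981073), ran opposite to the activators. At ZT2 it was at its highest, with 31, 62.7 and 60.7 CPM in THRBWT and 53, 63.6 and 55 CPM in THRBKO livers. The first THRBWT liver stood below every liver of ZT18, away from the other 5 of its time. By ZT6 the values were 15.3, 14.8 and 16.4 CPM and 15.6, 15.8 and 15.4 CPM, so that all 6 livers lay within 14.8 to 16.4 CPM. That fall was -1.80 (SE 0.131, adjusted p = 1.32e-10) on the log2 scale by edgeR. The lowest values came at ZT10, with 15.7, 14.6 and 13.4 CPM in THRBWT and 11.8, 10.1 and 12.3 CPM in THRBKO livers. *Nfil3* then rose from ZT10 to ZT14 (log2 fold change 0.94, SE 0.130, adjusted p = 6.49e-06) and from ZT14 to ZT18 (log2 fold change 0.62, SE 0.127, adjusted p = 0.00369).

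**Figure D1:**
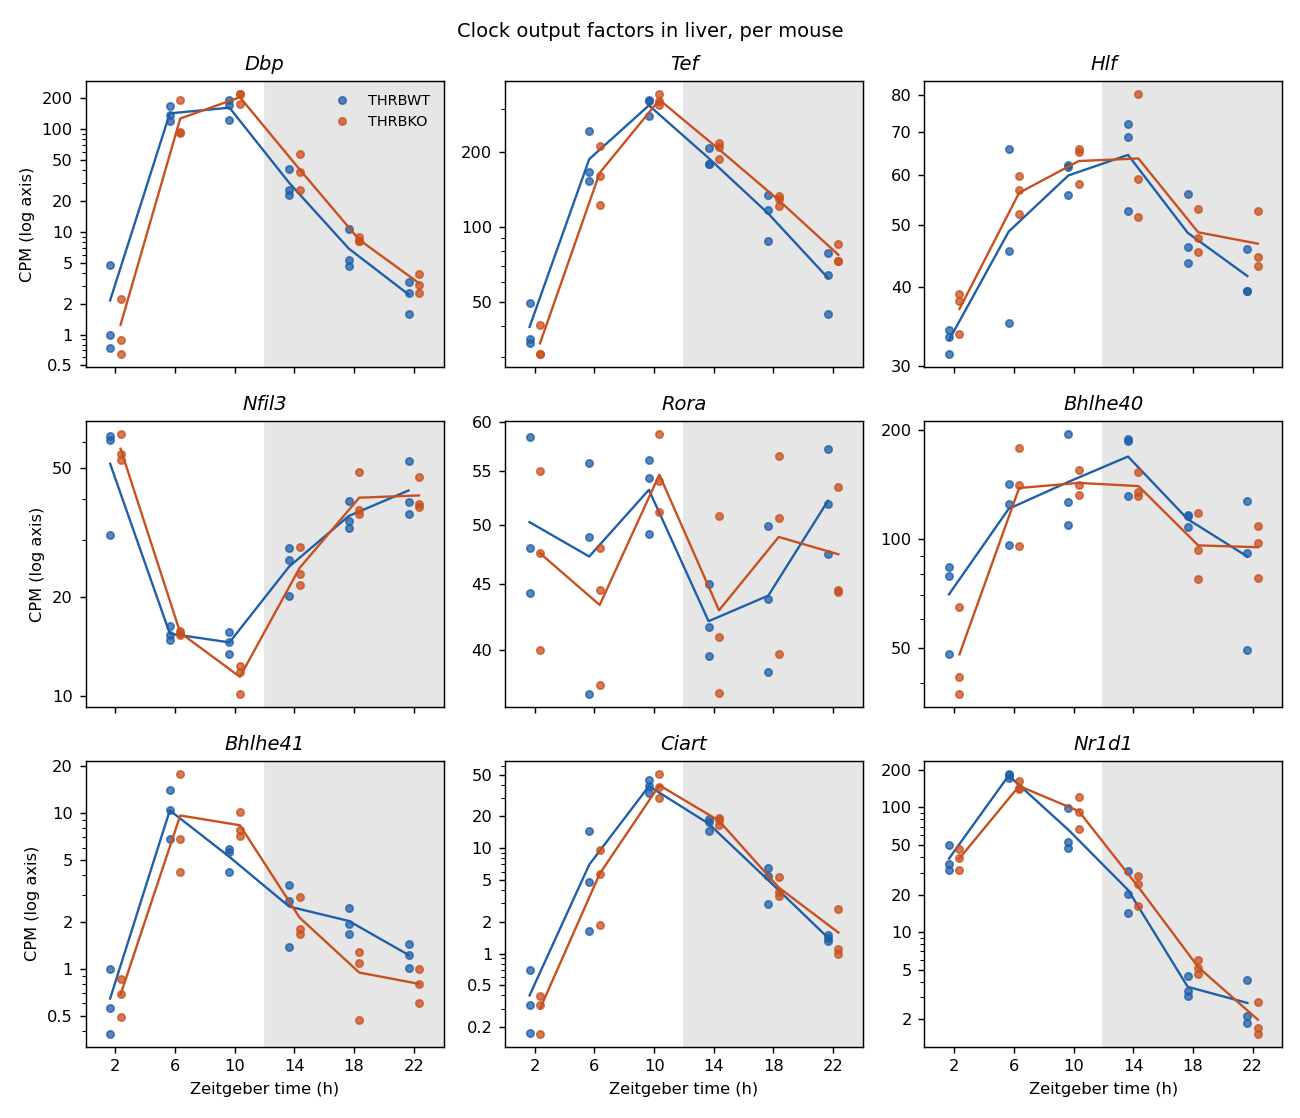
Level of each gene (TMM-scaled CPM, log axis with its own range for each gene) against zeitgeber time in h, with 1 point per liver, lines through the means of 3 livers, THRBWT in blue and THRBKO in orange, and the dark phase in grey. *Dbp* goes from 0.643 to 4.72 CPM at ZT2 to 123 to 220.3 CPM at ZT10, while *Nfil3* falls over the same hours and *Rora* stays between 37.0 and 58.8 CPM.

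Levels of different genes were compared per exon length (RPKM, TMM-scaled CPM per kilobase). The summed level of *Dbp*, *Tef* and *Hlf* was 9.28 to 13 (median 9.85) RPKM over the 6 livers at ZT2 and 84.8 to 127 (median 112) RPKM at ZT10. *Nfil3* had 15.3 to 31.4 (median 28.6) RPKM at ZT2 and 4.99 to 7.76 (median 6.34) RPKM at ZT10. The ratio of the activators' transcripts to that of the repressor was therefore below 1 in all 6 livers at ZT2, with 0.312 to 0.849 (median 0.330). It was 6.99 to 13.1 (median 9.35) at ZT6, 10.9 to 22 (median 18.2) at ZT10, 2.94 to 4.87 (median 3.93) at ZT14 and 0.986 to 1.71 (median 1.41) at ZT18. By ZT22 it was again below 1 in all 6 livers, with 0.466 to 0.945 (median 0.874). The makeup of the sum changed too. *Dbp* gave a median of 59.2% of it at ZT6 and 3.40% at ZT2, where *Hlf* gave 50.8% and *Tef* 45.3%. At ZT18 *Tef* gave the largest part, 61.1%. These ratios are of transcripts and are given as a description, with no test. RPKM ratios here and below also depend on the annotated exon lengths. Those were 2993 bases for *Dbp*, 7867 for *Tef*, 6681 for *Hlf* and 2026 for *Nfil3*. A ratio of 1 therefore need not mean equal numbers of transcripts.

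**Figure D2:**
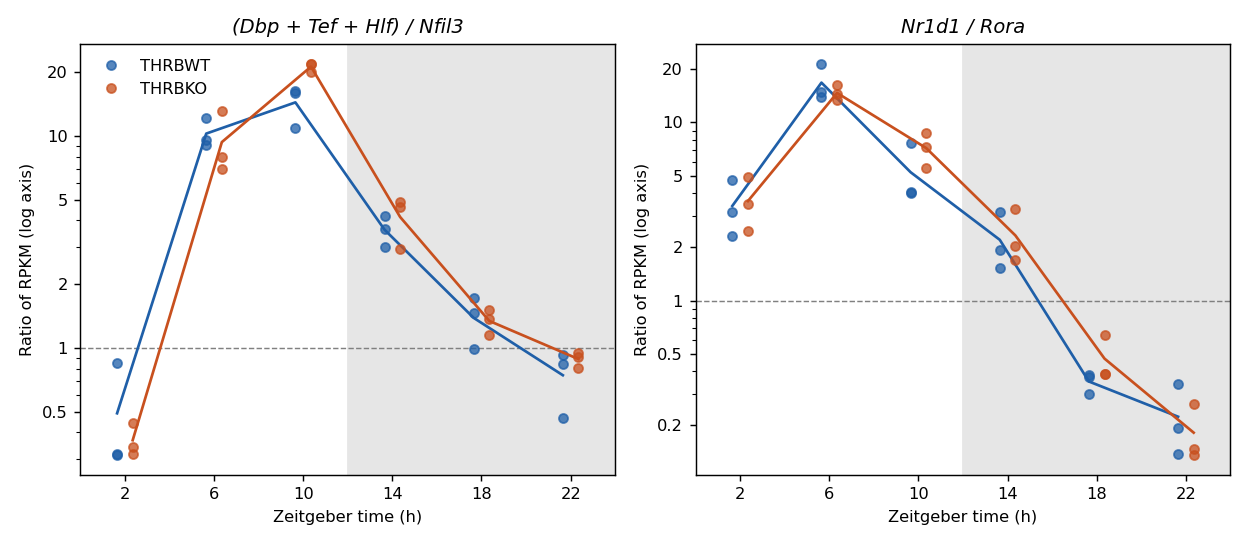
Ratio of RPKM values (log axis) against zeitgeber time in h, with 1 point per liver, lines through the means of 3 livers, THRBWT in blue, THRBKO in orange, and a dashed line at 1. On the left the sum of *Dbp*, *Tef* and *Hlf* over *Nfil3* is below 1 at ZT2 and ZT22 and reaches 22.0 at ZT10, and on the right *Nr1d1* over *Rora* reaches 21.4 at ZT6 and drops below 1 at ZT18.

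*Nr1d1*, the repressor at ROREs, rose ahead of the PAR-bZIP activators. At ZT22 it was at 1.86, 2.14 and 4.12 CPM in THRBWT and 2.73, 1.53 and 1.70 CPM in THRBKO livers. At ZT2 the values were 49.6, 31.7 and 35.3 CPM and 46.3, 31.7 and 39 CPM, a rise of 4.07 (SE 0.238, adjusted p = 1.91e-12) on the log2 scale by edgeR, when *Dbp*, *Tef*, *Hlf*, *Ciart*, *Bhlhe40* and *Bhlhe41* were at their lowest. It rose again to 187, 172 and 182 CPM and 163, 143 and 139 CPM at ZT6 (log2 fold change 2.07, SE 0.204, adjusted p = 5.17e-08). At ZT10 it had 47.2, 98.2 and 53 CPM and 92.6, 66.9 and 120.2 CPM, so that it already fell from ZT6 to ZT10 (log2 fold change -1.06, SE 0.198, adjusted p = 0.000566), the hours in which *Ciart* and *Tef* rose. The steepest fall was from ZT14 to ZT18 (log2 fold change -2.36, SE 0.220, adjusted p = 2.47e-07), to 4.49, 3.39 and 3.06 CPM in THRBWT and 6.01, 4.58 and 5.15 CPM in THRBKO livers. *Nr1d1* (chromosome 11, 98767932 to 98775333, minus strand) shares 263 exon bases, 8.55% of its own, with *Thra*, the gene of the other thyroid hormone receptor, on the opposite strand. *Thra* had 8.83 to 32.1 CPM over all livers and was itself rhythmic in both genotypes (adjusted p = 3.5e-05 in THRBWT and 4.03e-05 in THRBKO by edgeR, with peaks at 3.69 h and 3.22 h). Reads of the shared bases cannot be assigned by strand, and their part in the low values of *Nr1d1* at ZT18 and ZT22 was not tested.

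*Rora*, the activator at the same element (chromosome 9, 68653786 to 69388246), was the only one of the 9 genes without a rhythm that passed the test. Its values ran from 37.0 to 58.8 CPM over all 36 livers. At ZT10 they were 49.1, 54.4 and 56.1 CPM in THRBWT and 54.1, 51.1 and 58.8 CPM in THRBKO livers. At ZT14 they were 39.6, 41.7 and 45 CPM and 40.9, 50.8 and 37.1 CPM, with 1 THRBKO liver inside the range of ZT10. This fall, of -0.34 (SE 0.106, adjusted p = 0.0213) on the log2 scale, was its only step that passed edgeR's test, and without the livers of letter a or c it did not (adjusted p = 0.0590 and 0.242). The RPKM ratio of *Nr1d1* to *Rora* thus followed *Nr1d1*. It was 13.3 to 21.4 (median 14.7) over the 6 livers at ZT6 and 0.135 to 0.338 (median 0.169) at ZT22, below 1 in all livers at ZT18 and ZT22 and above 1 in all others.

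Of the DEC repressors, *Bhlhe41* (chromosome 6, 145858243 to 145865558) had sharp changes at a low level and *Bhlhe40* (chromosome 6, 108660629 to 108666925) shallow ones at a high level. *Bhlhe41* had 0.990, 0.557 and 0.382 CPM in THRBWT and 0.861, 0.693 and 0.490 CPM in THRBKO livers at ZT2. At ZT6 it had 14, 6.79 and 10.5 CPM and 18, 4.22 and 6.81 CPM. The groups do not overlap, and the rise was 3.92 (SE 0.323, adjusted p = 2.07e-09) on the log2 scale by edgeR. The counts behind these values ran from 13 to 602 per liver, the lowest on average of the set, and 19% of its exon bases are shared with *Gm43909* on the opposite strand, which had a median of 3 and at most 20 counts. *Bhlhe40* had 83.7, 79.2 and 48.1 CPM and 41.6, 65 and 37.2 CPM at ZT2 and 142, 96.3 and 125 CPM and 141, 95.8 and 178 CPM at ZT6, again without overlap. That rise was 1.16 (SE 0.195, adjusted p = 0.000156) and was its only step past the threshold. With no filter on low counts it also passed from ZT14 to ZT18 and from ZT22 to ZT2 (adjusted p = 0.0345 and 0.0194). Its levels then formed a plateau, with means over 6 livers of 129.9, 143.5 and 154.7 CPM at ZT6, ZT10 and ZT14 (SD 31.4, 29.7 and 27.1).

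*Ciart* (chromosome 3, 95878503 to 95882251), the gene with 3 E-boxes in its promoter window, changed at every step. Its values went from 0.702, 0.323 and 0.176 CPM in THRBWT and 0.327, 0.396 and 0.173 CPM in THRBKO livers at ZT2 to 4.73, 1.64 and 14.6 CPM and 9.66, 1.85 and 5.64 CPM at ZT6. At ZT10 they were 38.9, 33.5 and 44 CPM and 30.0, 37.7 and 51 CPM. The livers at ZT6 were spread over nearly the whole rise, yet did not overlap with those of ZT2 or ZT10. The rises were 4.18 (SE 0.465, adjusted p = 3.61e-07) and 2.63 (SE 0.341, adjusted p = 4.43e-06) on the log2 scale by edgeR. Between ZT22 and ZT2 *Ciart* fell once more by 2.11 on the log2 scale (adjusted p = 0.0343), at counts as low as 6 per liver. Without the livers of letter a, b or c this last step had adjusted p-values from 0.0605 to 0.370. A pseudogene, *Gm9176*, is at least 95% identical to the *Ciart* transcript over at least 80% of its length. It had at most 10 counts in a liver, and no other gene of the set had such a copy. *Tef*, *Bhlhe40* and *Rora* shared 2.45%, 2.51% and 0.627% of their exon bases with RNAs on the opposite strand (*Gm17597*, *0610040F04Rik* and *Gm15511*).

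Across the steps, the first 4 h shown were those with most changes. From ZT2 to ZT6, 7 of the 9 genes rose, against 6.48% of all genes tested, and *Nfil3* fell, against 5.15%. For the later steps the share of all genes that moved in the same direction stands in parentheses. From ZT6 to ZT10, *Tef* and *Ciart* rose (3.52% of all genes) and *Nr1d1* fell (4.0%). From ZT10 to ZT14, across lights off, 6 fell, namely *Dbp*, *Tef*, *Rora*, *Bhlhe41*, *Ciart* and *Nr1d1* (9.11% of all genes), and *Nfil3* rose (9.51%). From ZT14 to ZT18, 5 fell, namely *Dbp*, *Tef*, *Hlf*, *Ciart* and *Nr1d1* (3.12%), and *Nfil3* rose (3.0%). From ZT18 to ZT22, *Dbp*, *Tef* and *Ciart* fell (0.5%) and none rose (0.784%). *Nr1d1* had an adjusted p of 0.0509 at this step. From ZT22 to ZT2, across lights on, *Nr1d1* rose (0.5%) and *Tef* and *Ciart* fell (0.75%). In all, 30 of 54 tests of a gene at a step passed edgeR's test with Benjamini-Hochberg adjustment over all genes. Of these calls, some were lost with the 12 livers of a letter left out. Without letter a they were those of *Rora* and *Ciart* at lights off (adjusted p = 0.0590 and 0.0705), *Hlf* from ZT14 to ZT18 (0.0582) and *Ciart* from ZT18 to ZT22 and from ZT22 to ZT2 (0.451 and 0.154). Without letter b they were *Tef* and *Hlf* from ZT14 to ZT18 (0.0973 and 0.471), *Dbp*, *Tef* and *Ciart* from ZT18 to ZT22 (0.226, 0.168 and 0.208) and *Ciart* from ZT22 to ZT2 (0.0605). Without letter c they were *Hlf* from ZT2 to ZT6 (0.0567), *Rora* and *Ciart* at lights off (0.242 and 0.0541), *Hlf* and *Nfil3* from ZT14 to ZT18 (0.0851 and 0.234), *Dbp* from ZT18 to ZT22 (0.161) and *Ciart* from ZT22 to ZT2 (0.370). Other calls were gained. Without letter a, *Dbp* passed from ZT6 to ZT10 (0.0210) and from ZT22 to ZT2 (0.00944), and *Bhlhe41* from ZT14 to ZT18 (0.0394). *Nr1d1* passed from ZT18 to ZT22 with DESeq2's size factors (0.0498), with no filter on low counts (0.00760) and with edgeR's own filter (0.0485).

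**Figure D3:**
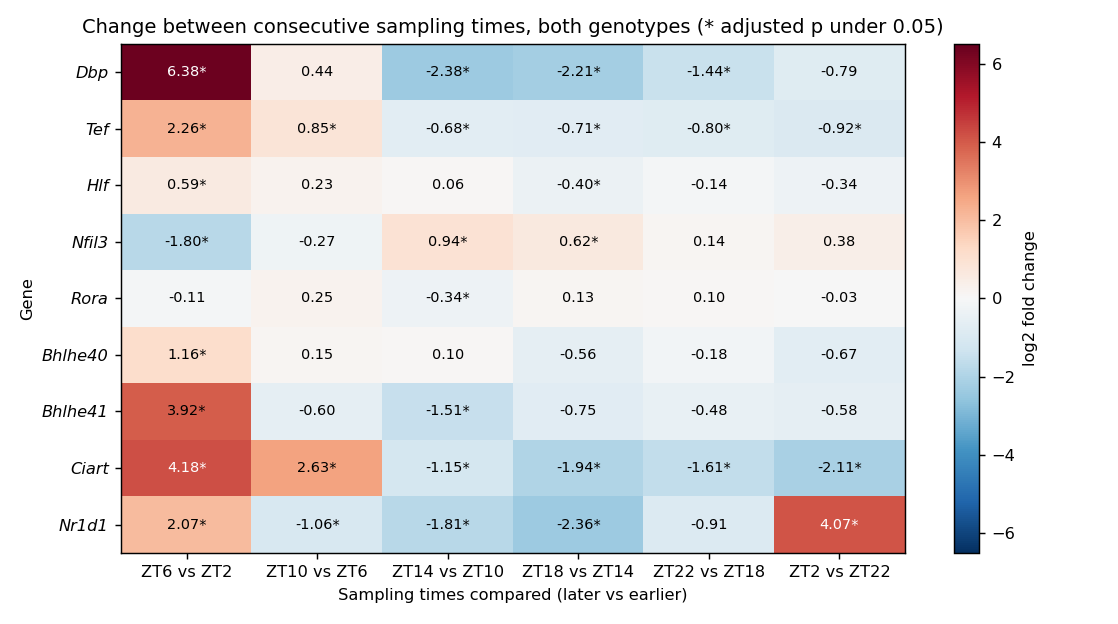
Log2 fold change of each gene (rows) between consecutive sampling times (columns, later against earlier), from livers of both genotypes with genotypes averaged, with red for higher and blue for lower values and an asterisk for an adjusted p under 0.05. The ZT6 against ZT2 column has 8 asterisks, from 6.38 for *Dbp* to -1.80 for *Nfil3*, and the *Rora* row has 1.

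A rhythm with a period of 24 h was tested in each genotype by sine and cosine terms in edgeR's model. In THRBWT livers 8 of the 9 genes passed, where 33.1% of all genes tested did, and in THRBKO livers the same 8 passed, where 28.9% of all genes did. *Rora* was the exception in both (adjusted p = 0.415 and 0.965). The smallest adjusted p belonged to *Nr1d1* in THRBWT (3.88e-08) and in THRBKO livers (2.13e-07). In THRBKO livers *Bhlhe40* lost the call without the livers of letter a or b (adjusted p = 0.158 and 0.0703) and *Hlf* without those of letter b (adjusted p = 0.0578).

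Amplitudes were estimated by a cosine curve on variance-stabilized values (vst, a log2-like scale that compresses low counts). *Dbp* had 3.08 ± 0.348 (SE) in THRBWT and 3.13 ± 0.348 in THRBKO livers. *Nr1d1* had 2.71 ± 0.190 and 2.70 ± 0.190, and *Ciart* 2.19 ± 0.221 and 2.23 ± 0.221. *Tef* had 1.34 ± 0.159 and 1.33 ± 0.159. Among the 8 rhythmic genes the smallest were those of *Hlf*, 0.42 ± 0.0694 and 0.34 ± 0.0694, and *Bhlhe40*, 0.58 ± 0.142 and 0.62 ± 0.142. On log2 CPM, which compresses low counts less, the amplitude of *Bhlhe41* was 1.38 in THRBWT and 1.94 in THRBKO, against 0.97 and 1.33 by vst. The ratio of the highest to the lowest group mean in CPM was 96.9 for *Ciart* in THRBWT and 132 in THRBKO. For *Dbp* it was 75.4 and 165, and for *Nr1d1* 66.5 and 74.7. These ratios rest on low means, such as 2.15 CPM for *Dbp* at ZT2 in THRBWT, where the first liver had 4.72 CPM. Without that liver the ratios in THRBWT were 188 for *Dbp* and 156 for *Ciart*, above those of THRBKO livers, where all 3 livers were kept. The cosine explained 92.6% of the variance of *Nr1d1* but 54.6% of that of *Bhlhe41* in THRBWT livers.

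Peak times by the same curve fell into a series around the later light phase and 1 late gene. In THRBWT livers *Nr1d1* peaked at 7.33 ± 0.268 h (SE), *Bhlhe41* at 9.17 ± 0.845 h, *Dbp* at 9.71 ± 0.431 h, *Tef* at 11.3 ± 0.454 h, *Ciart* at 11.9 ± 0.386 h, *Bhlhe40* at 12.4 ± 0.932 h and *Hlf* at 12.7 ± 0.630 h. *Nfil3* peaked at 21.8 ± 0.594 h. These are peaks of the fitted curve and need not match the sampled time of the highest mean. The highest group mean of *Nfil3* was at ZT2 and that of *Bhlhe41* at ZT6, in both genotypes. The SEs do not cover such a misfit of the curve. Of the 7 neighbouring pairs in the order of the fitted peaks, 2 had a 95% interval of the difference that left out 0. These were *Dbp* before *Tef*, by 1.57 h (1.06 to 2.08), and *Hlf* before *Nfil3*, by 9.05 h (7.35 to 10.74). In THRBKO livers the order was *Nr1d1* (7.73 h), *Bhlhe41* (8.90 h), *Dbp* (10.2 h), then *Hlf*, *Ciart*, *Tef* and *Bhlhe40* within 11.8 to 12 h, and *Nfil3* (21.9 h). The intervals left out 0 for *Bhlhe41* before *Dbp*, by 1.26 h (0.49 to 2.03), for *Dbp* before *Hlf*, by 1.69 h (0.26 to 3.13), and for *Bhlhe40* before *Nfil3*. The intervals of the other neighbours included 0. On log2 CPM, *Nr1d1* before *Bhlhe41* (2.27 h, 0.19 to 4.34) and *Tef* before *Ciart* (0.84 h, 0.16 to 1.52) left it out too in THRBWT livers.

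**Figure D4:**
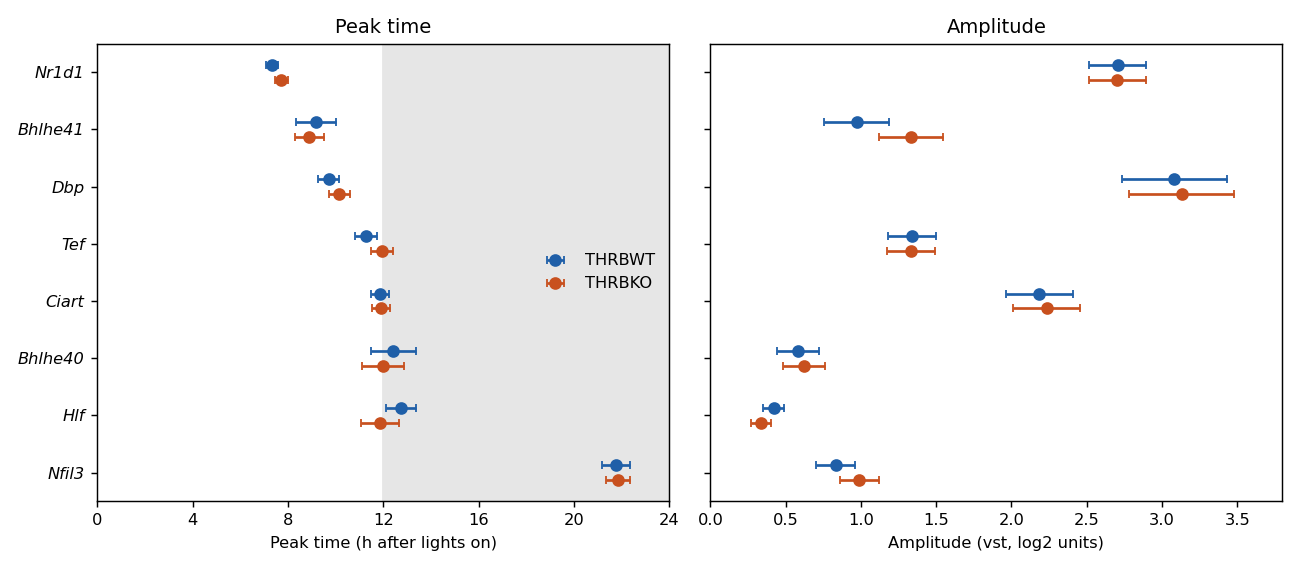
Peak time (left, h after lights on, dark phase in grey) and amplitude (right, vst units) of the 8 rhythmic genes, as estimates with bars of 1 SE from 18 livers, THRBWT in blue and THRBKO in orange. Peaks run from 7.33 h for *Nr1d1* to 12.7 h for *Hlf* in THRBWT, with *Nfil3* apart at 21.8 h, and amplitudes from 0.34 for *Hlf* to 3.13 for *Dbp* in THRBKO.

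Per length, *Bhlhe40* had the highest mean level over the day, 25.1 RPKM (range 10.2 to 41.6) in THRBWT and 23.4 RPKM (range 7.92 to 37.9) in THRBKO livers. *Dbp* followed with 19.3 RPKM (range 0.245 to 64.7) and 21.5 RPKM (range 0.215 to 73.6), *Tef* with 19.1 RPKM (range 4.32 to 41.4) and 19.9 RPKM (range 3.91 to 43.7), *Nr1d1* with 17 RPKM (range 0.604 to 60.6) and 16.8 RPKM (range 0.498 to 52.9), and *Nfil3* with 15.2 RPKM (range 6.61 to 30.9) and 15.7 RPKM (range 4.99 to 31.4). *Hlf*, *Ciart* and *Rora* had means of 7.39, 5.13 and 3.69 RPKM in THRBWT, and *Bhlhe41* was last with 0.548 RPKM (range 0.0568 to 2.09). The order of the means was the same in both genotypes. Over the whole day the ranges of neighbouring genes overlapped, except those of *Rora* and *Bhlhe41*. At ZT6 *Nr1d1* was the highest gene in THRBWT livers, with 60.6, 55.8 and 59.2 RPKM against 46.4, 39.9 and 56.9 RPKM for *Dbp*, and these values overlapped. At ZT10 *Dbp* led in THRBKO livers with 73.6, 58.7 and 73.4 RPKM, above all values of *Tef* (43.7, 41 and 39.5 RPKM). In THRBWT livers *Dbp* had 41, 64.7 and 57 RPKM and *Tef* 35.5, 41.1 and 41.4 RPKM, which overlapped. At ZT22 *Nfil3* (19.4, 17.8 and 25.9 RPKM in THRBWT) and *Bhlhe40* (19.4, 27.1 and 10.5 RPKM) overlapped at the top, and *Dbp*, *Ciart*, *Nr1d1* and *Bhlhe41* reached at most 1.31, 1.17, 1.34 and 0.214 RPKM in any liver.

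Between genotypes, none of the 9 genes differed over all sampling times with time in the model, where 0.95% of all genes tested did. *Dbp* had a log2 fold change (THRBKO against THRBWT) of 0.13 (SE 0.176, adjusted p = 0.829) by edgeR, with a 95% interval of -0.22 to 0.49. *Tef* had 0.05 (-0.12 to 0.21) and *Hlf* 0.10 (SE 0.0619, adjusted p = 0.555) with an interval of -0.03 to 0.22. *Hlf* had the smallest p of the set. *Nfil3* had -0.01 (-0.16 to 0.14) and *Rora* -0.02 (-0.14 to 0.10). *Bhlhe40* had -0.13 (-0.36 to 0.09), *Bhlhe41* -0.17 (-0.55 to 0.21), *Ciart* -0.07 (-0.47 to 0.33) and *Nr1d1* 0.08 (-0.18 to 0.33). The median of the 9 values was -0.0072, beside -0.0011 over all genes tested. As ratios of THRBKO to THRBWT, the interval of *Rora* ran from 0.907 to 1.07 and that of *Nfil3* from 0.896 to 1.10, while the wider one of *Bhlhe41* ran from 0.683 to 1.16 and that of *Dbp* from 0.856 to 1.41. Before adjustment, 0 of the 9 p-values were under 0.05, where 12.1% of all genes had one, and DESeq2's likelihood ratio test also called 0 of the 9.

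At single sampling times, 3 livers against 3, none of the 54 tests passed either. The shares of all genes tested that did were 0.0278% at ZT2, 0.0111% at ZT6, 0.0167% at ZT10, 0.0167% at ZT14, 0.0222% at ZT18 and 0.0222% at ZT22. The lowest p was that of *Bhlhe41* at ZT18, the 1 of the 54 under 0.05 before adjustment. Over all genes tested, between 4.12% and 5.43% had such a p at a given time, so this count is no more than the background. Its THRBWT livers had 2.46, 1.95 and 1.68 CPM and its THRBKO livers 1.09, 1.28 and 0.470 CPM, with no overlap. The log2 fold change was -1.11 (SE 0.450, adjusted p = 0.871 by edgeR). At ZT22 its values were also lower without overlap, 1.23, 1.44 and 1.01 CPM against 0.801, 0.995 and 0.602 CPM (log2 fold change -0.62, SE 0.466, adjusted p = 0.988). At ZT10 they were higher without overlap, 4.16, 5.65 and 5.90 CPM against 7.18, 7.79 and 10.2 CPM (log2 fold change 0.68, SE 0.383, adjusted p = 1.0). A test of whether the genotype effect of *Bhlhe41* varied with time did not pass (adjusted p = 0.9999 by edgeR), and 0.0% of all genes passed that test.

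The ranges of 3 THRBWT and 3 THRBKO livers did not overlap in 6 of the 54 cases of a gene at a time, where 9.96% of such cases did not over all genes tested. Besides *Bhlhe41*, these were *Nfil3* at ZT10, lower in THRBKO livers (log2 fold change -0.35, SE 0.186, adjusted p = 1.0), *Nr1d1* at ZT6, lower (log2 fold change -0.28, SE 0.276, adjusted p = 0.9996), and *Nr1d1* at ZT18, higher (log2 fold change 0.53, SE 0.323, adjusted p = 0.970). The ratio of the summed PAR-bZIP activators to *Nfil3* at ZT10 was 10.9, 16.0 and 16.3 in THRBWT and 21.8, 22.0 and 20.0 in THRBKO livers. At the other 5 times the ranges of the genotypes overlapped, as at ZT6 with 9.601, 9.10 and 12.1 in THRBWT and 13.1, 6.99 and 7.98 in THRBKO livers. The separation at ZT10 was noticed after the values were seen and is given without a test.

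**Figure D5:**
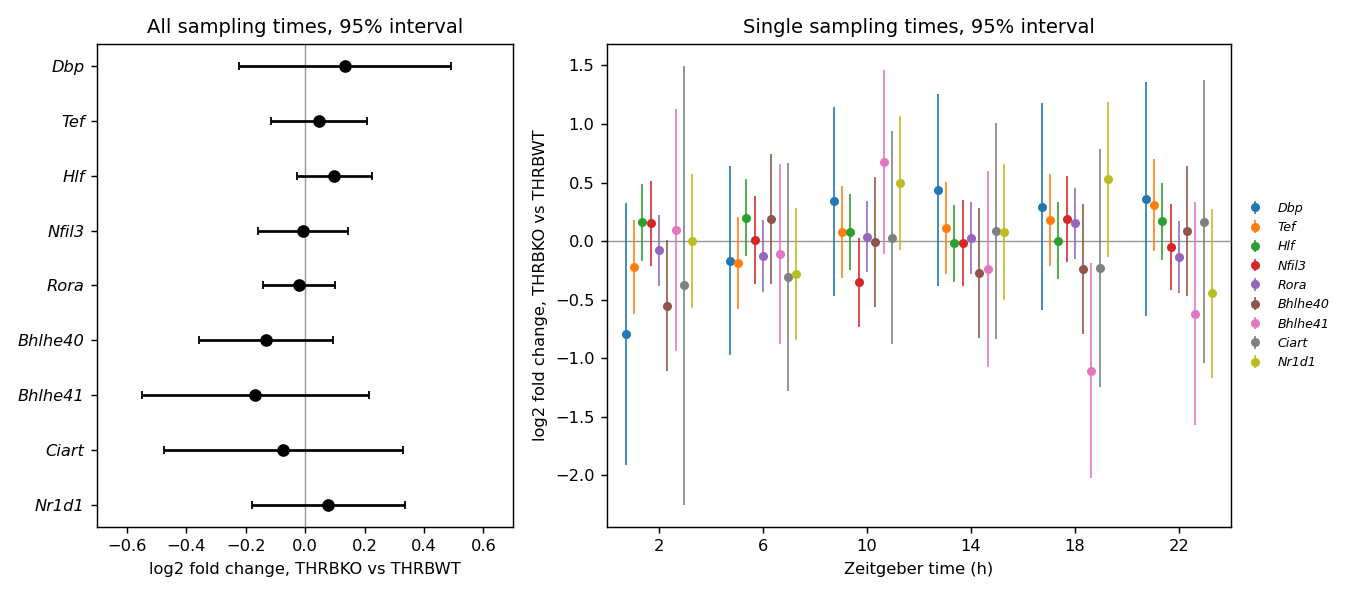
Log2 fold change of each gene in THRBKO against THRBWT livers with 95% intervals, over all sampling times on the left (18 livers per genotype) and at each zeitgeber time in h on the right (3 livers per genotype, genes side by side in colours). On the left all 9 intervals include 0, and on the right the interval of *Bhlhe41* at ZT18, -2.03 to -0.19, does not.

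The difference in the 24-h rhythm between genotypes passed for none of the 9 genes (0 with p under 0.05 before adjustment, beside 3.07% of all genes), and for 0.0% of all genes. For differences of single parameters on the vst scale, 0.645% of all genes passed for the mesor (the mean level of the curve), 0.0% for the amplitude and 0.05% for the peak time, and no gene of the set passed for any of them. Before adjustment, too, none of the 27 p-values was under 0.05. The peak of *Nr1d1* was 0.39 h later in THRBKO livers with a 95% interval of -0.38 to 1.17 h, that of *Dbp* 0.45 h later (-0.78 to 1.69 h) and that of *Tef* 0.65 h later (-0.67 to 1.96 h). For *Ciart* the difference was 0.03 h (-1.08 to 1.13 h) and for *Nfil3* 0.09 h (-1.50 to 1.68 h). *Hlf*, *Bhlhe40* and *Bhlhe41* had estimates of -0.87, -0.45 and -0.27 h. The amplitude of *Bhlhe41* was 0.36 vst units larger in THRBKO livers, with an interval of -0.26 to 0.98. A delay of 1 h lay within the interval of each of the 8 rhythmic genes, so these intervals do not show that the genotypes were alike.

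The widest spread among livers of 1 group was seen at ZT2 and ZT6. *Ciart* at ZT6 differed 8.89-fold between the highest and lowest of 3 THRBWT livers and 5.21-fold among THRBKO livers. *Dbp* at ZT2 differed 6.45-fold in THRBWT livers, and *Bhlhe41* at ZT6 4.27-fold in THRBKO livers. Several genes deviated together in 1 liver. On the log2 CPM scale, the third THRBWT liver at ZT6 was above its group mean by 1.57 in *Ciart*, 0.48 in *Hlf*, 0.40 in *Tef* and 0.27 in *Dbp*. The first THRBKO liver at ZT6 was above its group mean by 1.16 in *Bhlhe41*, 1.04 in *Ciart*, 0.70 in *Dbp* and 0.40 in *Tef*. The first THRBWT liver at ZT2 was above its group mean by 1.59 in *Dbp* and 0.90 in *Ciart*, and below it by log2 -0.66 in *Nfil3*. Without that liver the same 8 genes were rhythmic in each genotype, no gene differed between genotypes at any time, and 33 in place of 30 tests of a gene at a step passed. The 3 added calls were *Dbp* (adjusted p = 0.0333) and *Nfil3* (adjusted p = 0.0102) from ZT22 to ZT2 and *Nr1d1* from ZT18 to ZT22 (adjusted p = 0.0486).

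The other genes of the clock loop were compared in the same way. Of 14 listed genes, 13 were tested, since *Rorb* had too few counts. In each genotype 11 were rhythmic, beside 33.1% of all genes in THRBWT and 28.9% in THRBKO livers. The exceptions were the kinases *Csnk1d* and *Csnk1e*. None of the 13 differed between genotypes, beside 0.95% of all genes. Their median log2 fold change was 0.02, beside -0.0011 over all genes tested, and 0 had a p under 0.05 before adjustment, beside 12.1%. The largest amplitudes were those of *Npas2* (2.02 vst units in THRBWT) and *Arntl* (1.90), the smallest those of *Csnk1d* and *Csnk1e* (0.04 and 0.05). *Arntl* peaked at 22.0 h in THRBWT and 22.3 h in THRBKO livers, beside *Nfil3*, and *Nr1d2*, the close relative of *Nr1d1*, at 8.92 h and 9.602 h.

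Of 9 genes with D-boxes or known dependence on the PAR-bZIP factors, 7 were rhythmic in THRBWT and 7 in THRBKO livers. The shares of all genes were 33.1% and 28.9%. None of the 9 differed between genotypes at an adjusted p under 0.05, beside 0.95% of all genes. Their median log2 fold change was 0.21, beside -0.0011 over all genes tested, and 3 had a p under 0.05 before adjustment, beside 12.1% of all genes, with an adjusted p of 0.0797 for *Cyp7a1*, the rate-limiting enzyme of bile acid synthesis, as the lowest. From ZT2 to ZT6, 4 of the 9 rose, beside 6.48% of all genes, and from ZT6 to ZT10, 5, beside 3.52%. The largest amplitudes in THRBWT livers were those of *Per1* (1.78 vst units, peak 12.5 h) and *Alas1*, the first enzyme of heme synthesis (1.64, peak 13.1 h), and the smallest those of *Alb* (0.11) and *Cyp2b10* (0.32). *Por*, which feeds electrons to cytochromes P450, peaked at 12.3 h in THRBWT and 12.7 h in THRBKO livers.

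Of 11 genes with ROREs, 7 were rhythmic in THRBWT and 8 in THRBKO livers, beside 33.1% and 28.9% of all genes. None of the 11 differed between genotypes, beside 0.95% of all genes. Their median log2 fold change was -0.0060, and 2 had a p under 0.05 before adjustment, beside 12.1% of all genes. From ZT2 to ZT6, while *Nr1d1* rose, 6 of the 11 fell and 1 rose, beside 5.15% and 6.48% of all genes. From ZT6 to ZT10, while *Nr1d1* fell, 4 of the 11 also fell and 2 rose, beside 4.0% and 3.52%. From ZT10 to ZT14, while *Nr1d1* fell, 4 rose and none fell, beside 9.51% and 9.11%. From ZT14 to ZT18, while *Nr1d1* fell, 6 rose and none fell, beside 3.0% and 3.12%. From ZT18 to ZT22, 3 rose and none fell, beside 0.784% and 0.5%. From ZT22 to ZT2, at the largest rise of *Nr1d1*, 2 fell and none rose, beside 0.75% and 0.5%. Whether these changes depend on *Nr1d1* was not tested, and a shared time of day cannot be told apart from such a link. The largest amplitudes in THRBWT livers were those of *Elovl3*, a fatty acid elongase (2.40 vst units, peak 23.7 h), and *Npas2* (2.02, peak 0.210 h). The smallest were those of *Apoa1* (0.11) and *Apoc3* (0.13). Genes such as *Arntl*, *Clock*, *Npas2*, *Cry1* and *Per1* stand in more than 1 list, so the lists are not independent of each other.

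The genes most like each member were sought by Pearson's r of log2 CPM over all 36 livers, among 11918 genes with a mean of at least 50 counts, as a description. All these livers share the same sampling times. *Dbp* was most like *Xylb* (r = 0.935) and *Tef* (0.928), and *Tef* most like *Per3* (0.969) and *Ciart* (0.952). *Hlf* was most like *Lrp4* (0.890) and *Naa60* (0.880), and *Nfil3* most like *Arntl* (0.925) and *Lgalsl* (0.924). *Bhlhe40* was most like *Lipg* (0.814) and *Per3* (0.814), and *Bhlhe41* most like *Dbp* (0.913) and *Eci2* (0.887). *Ciart* was most like *Usp2* (0.956) and *Gys2* (0.953), and *Nr1d1* most like *Bdh1* (0.921) and *Abcg8* (0.903). For *Rora* the closest were *Rmdn2* (0.698) and *Lgr4* (0.653), lower than for any other gene of the set. Within the set, *Dbp* and *Nfil3* had the strongest opposite course (r = -0.962), and *Rora* had an r between -0.11 and 0.09 with each of the others.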

How the data were processed

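Livers of 18 THRBWT and 18 THRBKO mice were compared. The libraries were made from poly-A RNA by a protocol that keeps no strand. HISAT2 (mapping to GRCm38) and featureCounts are named by the submitters, and the authors deposited raw gene counts. Versions, annotation release and the treatment of reads shared by several genes are not given in the sources used here. The mapping of columns to mice was taken from the labels. No column of per-sample values was left out (0).

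The tests took genes whose counts summed to 100 or more. Counts were scaled by TMM and tested by edgeR 4.0.16 (quasi-likelihood F test, two-sided, R 4.3.3), with time as a factor for the genotype comparison, 12 group means for single times, steps and interaction, and sine and cosine terms of a period of 24 h for rhythms. P-values were adjusted over all 17994 genes (Benjamini-Hochberg, threshold 0.05). A joint cosinor per genotype (Python 3.11.15, numpy 2.4.6, scipy 1.17.1) used vst values of DESeq2 1.42.0 with delta-method errors, and DESeq2 served as an alternative test. Log2 CPM used a prior count of 2. RPKM used the exon length in the deposited table. Both models were tested on simulated data. Exon overlaps came from GENCODE, copies from BLAST 2.17.0, and promoters from RefSeq. Nothing states whether the 3 mice of a group came from separate litters or batches. The p-values set differences against the spread between these mice, which may include such sources.

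Members and gene lists were chosen with earlier results of these data known. Named genes besides the 9 members are the 2 with the largest and the 2 with the smallest amplitude in THRBWT livers of each list, genes of a list that passed a genotype test, and the 2 genes most like each member. Others were named after their values were seen, and some genes of the lists are not reported here by name. Markers of 8 cell types were summed per library. Alternatives were other size factors, filters, tests and scales, a replicate block, and left-out livers. The designs follow the study's use of sampling time and cosinor models.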

Additional observations from a re-analysis of the deposited data

How the results depend on the processing

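No member differed between genotypes under any of 9 alternatives for the comparison with time in the model, nor with any of the 36 livers left out in turn, an alternative added after the data were seen. Over these the adjusted p of *Hlf* ranged from 0.297 to 0.965 and that of *Bhlhe41* from 0.488 to 0.999. Counts over all genes moved more: from 171 to 65 with sampling times pooled, 306 with DESeq2's likelihood ratio test, 387 with the replicate block, and 42, 85 and 68 without the livers of letter a, b or c. Calls at single times went from 21 to 43 with no filter on low counts, 36 with the block, and 7 without letter a or b. Steps went from 8355 to 4049 to 4536 without a letter, and rhythms from 5952 to 3169 in THRBWT without c and from 5207 to between 2394 and 3263 in THRBKO without any 1 letter. Without the livers of a letter, 8 members stayed rhythmic in THRBWT and 6 to 8 in THRBKO livers, and 23 to 33 of the 54 steps passed, counting the fit without the first THRBWT liver of ZT2. Between 4 and 5 neighbouring peaks differed beyond their interval when the livers of a letter were left out, against 5 in all livers and 7 on log2 CPM.

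The main fits did not treat mice of the same time and letter as pairs, and the sources do not state what the letters mean. The correlation of the deviations of such mice over genes ran from -0.04 to 0.23, with 9 of 18 above 0.1. With THRBKO livers of another letter it ran from -0.14 to 0.058, and 15 of 18 THRBWT livers correlated best with the THRBKO liver of their own letter. Several of these same-letter mice also had neighbouring animal numbers in their labels. Whether the letters mark a shared litter or batch was not tested. With the replicate block, 0 members differed at any time, in the interaction or in rhythm, and *Bhlhe41* at ZT18 had an adjusted p of 0.211 (edgeR), against 0.681 to 1.0 in the other fits.

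Several genotype effects near 0 changed sign. *Nfil3* turned to 0.046 with times pooled and 0.0058 with the block, *Bhlhe41* to 0.031 and *Nr1d1* to -0.011 with times pooled. With livers left out, the log2 fold change ran from -0.067 to 0.0345 for *Nfil3*, -0.043 to 0.0017 for *Rora*, -0.15 to 0.11 for *Ciart* and -0.0033 to 0.24 for *Nr1d1*. The peak difference ran from -2.09 to 0.0034 h for *Hlf*, -0.24 to 0.65 h for *Nfil3*, -1.35 to 0.17 h for *Bhlhe40* and -0.42 to 0.27 h for *Ciart*. None of these passed its test, and the cause was not tested. Low counts limit *Bhlhe41* and *Ciart* most, and sampling every 4 h limits all peak times.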
